A study of Mus musculus with 12 samples.

Results

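The response of brown adipocytes to cold was measured in nuclei of 2 iBAT libraries of mouse adipose tissue, 1 from mice at 4 °C for 3 days and 1 from mice at 22 °C. iBAT usually stands for interscapular brown adipose tissue, although the labels do not spell it out. Both libraries came from male C57BL/6J mice on normal chow. Their titles give an age of 6 months and their age fields give 16 weeks. The number of mice behind each library is not stated, the labels name no transgene, and no group has a second library. Of 33789 nuclei kept in the 2 libraries, 29880 were taken as adipocyte nuclei, 11111 after cold and 18769 at 22 °C. The series holds 119035 barcodes in 12 libraries. Libraries of iBAT at 22 °C from 4-week-old and 8-week-old mice, and cold and 22 °C libraries of the depots labelled mPRAT and iWAT at 16 weeks, served as references.

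A nucleus was taken as an adipocyte nucleus when 6 adipocyte genes (Adipoq, Plin1, Plin4, Lipe, Cidec and Acsl1) gave at least 3 unique molecular identifiers (UMIs, each counting 1 captured RNA molecule) in sum, and more than 6 genes of other cells did (Flt1, Ptprb, Lama2, Dcn, Mrc1 and Ptprc). Nuclei were kept from 300 detected genes upward, with mitochondrial UMIs making up no more than 10%. The UMIs of the adipocyte nuclei of a library were summed, and levels are in CPM, the UMIs of a gene per 1000000 UMIs of that sum. The contrast was proposed with results of these data known, so what follows is a description of 2 libraries. With 1 library per condition there is no test, no spread between animals and no p-value, and cold and library cannot be told apart. Intervals in parentheses are exact 95% intervals that cover counting error only.

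Brown adipocytes burn fat to make heat. Cold is sensed by the nervous system, noradrenaline released by sympathetic nerves acts on beta-adrenergic receptors, and cyclic AMP then starts lipolysis and the transcription of genes for heat production. Fatty acids set free from lipid droplets activate uncoupling protein 1 (Ucp1), which lets protons back across the inner mitochondrial membrane without making ATP. Brown adipose tissue in cold is also known for a high uptake of glucose and of lipoprotein fatty acids, and for making new fatty acids at the same time as it oxidizes them.

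In this comparison Ucp1 RNA was 3.42-fold higher after cold, and several genes of fatty acid chain elongation, glucose breakdown and the capture of circulating fat were also at least 2-fold higher, while the transcription factor Ppara, the leptin gene and the vessel factor Angpt1 were lower. Of 8765 genes with at least 10 CPM in either library, 588 were at least 2-fold higher after cold (6.71%) and 734 at least 2-fold lower (8.37%), with 1 CPM added to each level before the ratio. All log2 ratios below are cold over 22 °C on that scale, which understates differences of genes near 1 CPM. Folds are plain ratios of the levels. Members of a list below 10 CPM in both libraries were not tested. A gene that reached 10 CPM in only 1 library was more likely to differ, so counts and medians over tested members are descriptions. The median log2 ratio of all 8765 genes was -0.06. With the TMM scaling of edgeR the median of all genes shifted by 0.17, and 841 genes were higher and 570 lower, so 59.6% of the genes past 2-fold were on the higher side against 44.5% with plain CPM.

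**Figure D1:**
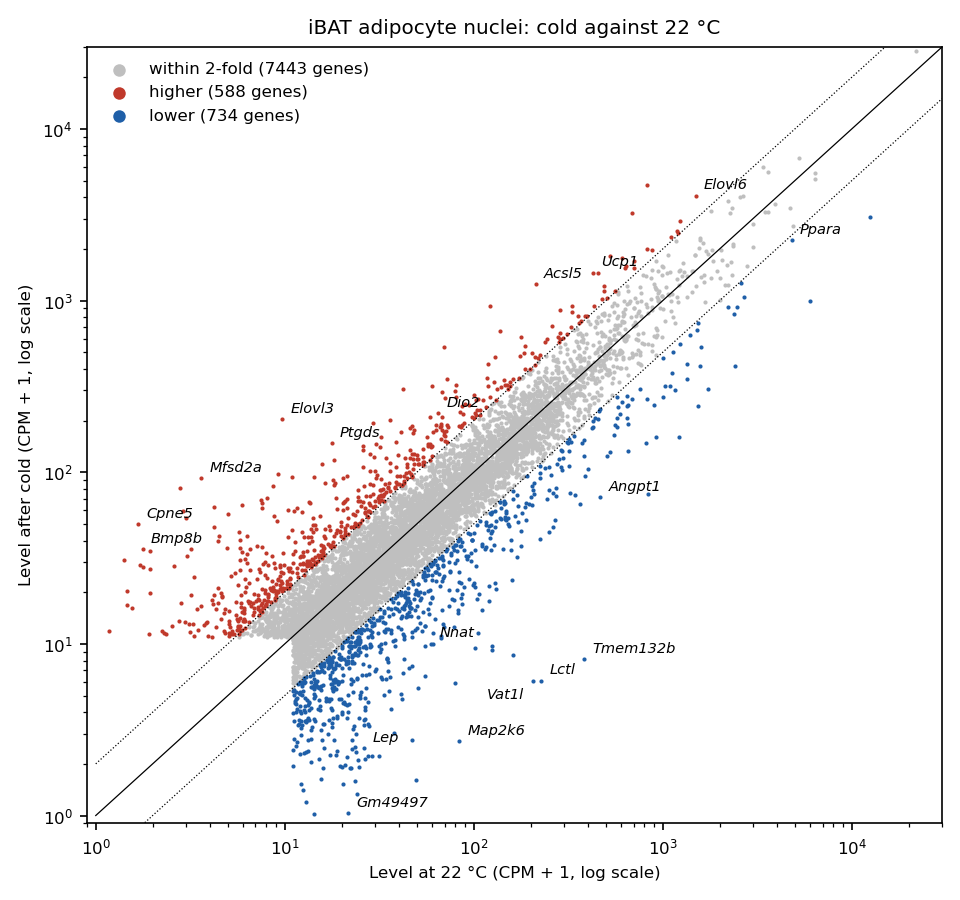
Level of each of 8765 genes in adipocyte nuclei at 22 °C (x axis) and after cold (y axis), in CPM with 1 added, on log scales; the solid line marks equal levels and the dotted lines 2-fold. Elovl3, Mfsd2a and Bmp8b lie far above the upper dotted line, and Tmem132b, Lctl and Map2k6 far below the lower one.

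Promoter sequences are shown here for 4 raised genes of the heat-production and lipogenic lists, the ones with the highest log2 ratios among members that have a RefSeq window, because these genes belong to the main result. They run from 250 bases before to 50 bases after the RefSeq start on GRCm38.p6. Capitals mark matches to 1 of 5 motifs searched on both strands: the E-box CACGTG, the CCAAT box CCAAT, the cyclic AMP response element TGACGTCA, the sterol regulatory element form TCACNCCA and the ERR element TCAAGGTCA. Bmp8b (a secreted factor of brown fat) has its window at chr4:123104911-123105210, + strand, Acsl5 (an enzyme that activates fatty acids) at chr19:55253119-55253418, + strand, Ucp1 at chr8:83290098-83290397, + strand, and Dio2 (which makes active thyroid hormone in the cell) at chr12:90738989-90739288, - strand.
Bmp8b: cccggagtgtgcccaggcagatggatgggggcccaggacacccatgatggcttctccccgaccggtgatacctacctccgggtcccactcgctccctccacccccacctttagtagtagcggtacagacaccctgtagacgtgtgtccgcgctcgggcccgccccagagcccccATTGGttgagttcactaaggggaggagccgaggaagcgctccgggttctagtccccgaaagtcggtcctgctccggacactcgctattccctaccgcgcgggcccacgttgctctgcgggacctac
Acsl5: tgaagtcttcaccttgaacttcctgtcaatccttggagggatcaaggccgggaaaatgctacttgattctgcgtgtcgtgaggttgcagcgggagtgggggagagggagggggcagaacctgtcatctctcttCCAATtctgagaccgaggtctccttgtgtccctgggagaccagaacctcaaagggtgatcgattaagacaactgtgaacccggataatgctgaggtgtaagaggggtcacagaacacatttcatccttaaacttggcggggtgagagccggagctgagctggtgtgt
Ucp1: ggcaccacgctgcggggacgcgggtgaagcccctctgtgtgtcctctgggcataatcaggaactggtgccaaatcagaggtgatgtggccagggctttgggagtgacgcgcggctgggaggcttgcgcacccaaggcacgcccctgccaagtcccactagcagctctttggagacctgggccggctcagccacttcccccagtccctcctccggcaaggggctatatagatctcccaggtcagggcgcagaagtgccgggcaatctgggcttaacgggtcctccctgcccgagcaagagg
Dio2: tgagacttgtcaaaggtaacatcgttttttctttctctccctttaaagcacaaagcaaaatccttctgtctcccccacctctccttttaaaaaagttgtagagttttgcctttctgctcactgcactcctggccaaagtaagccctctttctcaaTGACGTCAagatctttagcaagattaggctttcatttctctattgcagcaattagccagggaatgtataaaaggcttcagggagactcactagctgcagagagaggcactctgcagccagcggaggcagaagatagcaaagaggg
The capitals in the Dio2 window are the cyclic AMP response element, at position -95 from the start. Those in the Acsl5 window are a CCAAT box at -117, and those in the Bmp8b window are a CCAAT box at -76 on the opposite strand. None of the 5 motifs is in these letters of the Ucp1 window. Of 18 members of the heat-production, fatty acid synthesis and lipogenic regulator lists that were at least 2-fold higher, with at least 20 CPM in either library, 15 had a RefSeq window. Elovl3 and Scd2, with higher log2 ratios than Bmp8b and Ucp1, in that order, are among those without one. Over the first window of each gene, 7 of 15 held a CCAAT box, against 37.4% of 32851 windows of all genes, 3 held an E-box (7.15% of all windows), 2 a cyclic AMP response element (1.79%), 1 the sterol form (4.36%) and 0 the ERR element (0.423%). These matches are a description of the letters only.

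The 2 libraries differed in depth. Adipocyte nuclei held a median of 6745 UMIs and 2734 genes after cold, against 2307 UMIs and 1370 genes at 22 °C, and their sums came to 82685795 and 51794117 UMIs. Adipocyte nuclei were 87.7% of kept nuclei after cold (87.1 to 88.2) and 88.9% at 22 °C (88.5 to 89.3). At the threshold of 3 adipocyte UMIs lay 61 nuclei after cold and 500 at 22 °C, and 81 and 377 nuclei had 2 such UMIs and stayed outside. The libraries shared 75 cell barcodes among their kept nuclei, 0.592% of those after cold. The mPRAT cold library stood apart from the others, since 66.0% of its barcodes were over the mitochondrial limit, which left 2337 adipocyte nuclei there. Summed markers of skeletal muscle came to 19.04 and 17.7 CPM in the cold and 22 °C adipocyte sums, and to 515 and 2870 CPM in the 4-week and 8-week libraries.

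The defining genes of adipocytes were high in both libraries, apart from Adipoq after cold. Plin1 (the main coat protein of lipid droplets), Lipe (hormone-sensitive lipase), Cidec, Plin4 and Acsl1 had log2 ratios between -0.16 and 0.04. Adipoq, the gene of the hormone adiponectin, had 40.2 CPM after cold and 121 CPM at 22 °C, and 108 and 119 CPM in the 4-week and 8-week libraries, so it was lowest after cold. All 6 genes entered the choice of nuclei. Of genes that did not, Pparg, the master regulator of fat cell identity, had 3476 CPM after cold and 4699 CPM at 22 °C, and Cidea, a droplet protein typical of brown fat, had 985 CPM after cold and 1196 CPM at 22 °C, against 115 and 109.8 CPM in nuclei of other cells of these libraries. Summed markers of other cells in the adipocyte nuclei were low in both libraries. They came to 35.4 after cold and 38.5 CPM at 22 °C for 6 endothelial genes, 20.1 and 51.6 CPM for 6 stromal progenitor genes, 24.5 and 39.9 CPM for 6 macrophage genes, and 18.4 and 71.1 CPM for 6 Schwann cell genes. Lymphocyte, pericyte and dividing-cell markers came to at most 37.2 CPM per list in either library. No marker of these lists was at 0, and the lowest was the Schwann cell factor Sox10 with 1 UMI after cold and 4 at 22 °C. Part of their counts entered the choice of nuclei, and their part in the results was not tested.

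Effectors of heat production were higher after cold for 8 of 16 members tested, of 18 listed, and lower for none, against 6.71% and 8.37% of all genes. Their median log2 ratio was 0.98. Ucp1 (chr8:83290352-83298452, + strand, GENCODE M21 on GRCm38) had 1454 CPM after cold and 425 CPM at 22 °C, 3.42-fold (3.37 to 3.47) higher, with 337 and 497 CPM in the 4-week and 8-week libraries. The cold library was thus the highest of the 4 iBAT libraries for Ucp1, and the 3 at 22 °C spanned 337 to 497 CPM. Elovl3, an elongase of very long fatty acids that brown fat makes in cold, had 203 CPM after cold and 8.71 CPM at 22 °C, 23.4-fold (21.3 to 25.7) higher. Its younger libraries were at 0.287 and 4.79 CPM.
Dio2 behaved otherwise among the reference libraries. It had 219 CPM after cold and 63.7 CPM at 22 °C, 3.44-fold (3.31 to 3.57) higher, but the 8-week library at 22 °C held 202 CPM and the 4-week library 39.0 CPM, so its cold level was not apart from all libraries at 22 °C. Gk, the glycerol kinase that lets an adipocyte reuse glycerol, had 1589 CPM after cold and 637 CPM at 22 °C with 854.6 CPM at 8 weeks. Acot11, a thioesterase known as a brown fat protein induced by cold, had 1209 CPM after cold and 490.0 CPM at 22 °C, and Letmd1, a mitochondrial protein needed for brown fat heat production, 263 against 102 CPM. Bmp8b had 34.5 CPM after cold and 0.772 CPM at 22 °C, 44.7-fold (32.7 to 62.7) higher. Its near-identical neighbour Bmp8a can share its reads, so the split between the pair is uncertain. Members within 2-fold lay on both sides. Cox7a1, a respiratory chain subunit typical of brown fat, had 47.7 against 25.1 CPM, Cox8b was at a log2 ratio of 0.50 and Slc27a2 at 0.47. P2rx5 had 105 against 168 CPM, Cidea was at a log2 ratio of -0.28, Kcnk3 at -0.07 and Slc36a2 at 0.05.

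Transcription regulators of brown fat, 25 in the list, showed 5 of 24 tested members higher (6.71% of all genes) and 1 lower (8.37%). Their median log2 ratio was 0.36. The coactivator Ppargc1a, which brown fat raises in cold, had 1465 CPM after cold and 1091 CPM at 22 °C, a log2 ratio of 0.43, with 494 and 1069 CPM in the younger libraries. Esrrb had 54.5 CPM after cold and 7.82 CPM at 22 °C, 6.97-fold (6.30 to 7.74) higher and above all 3 libraries at 22 °C, and its relative Esrrg had 3995 against 2551 CPM. Both are estrogen-related receptors, a family that drives genes of oxidative metabolism. The lower member was Ppara, the nuclear receptor of fatty acid oxidation, with 2251 CPM after cold and 4801 CPM at 22 °C, 2.13-fold (2.12 to 2.15) lower. With TMM scaling its log2 ratio was -0.92, within 2-fold. The younger libraries held 8567 and 7219.7 CPM, so the level was lowest after cold. Perm1, a muscle and brown fat partner of the estrogen-related receptors, had 32.5 against 10.1 CPM, and the brown-lineage marker Zic1 16.9 against 3.11 CPM. Levels of Zic1 in other nuclei were 20.01 and 20.1 CPM, at or above the adipocyte level. Prdm16, Ebf2 and Ppargc1b, which set or keep brown identity, had log2 ratios of 0.29, -0.25 and -0.14.

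**Figure D2:**
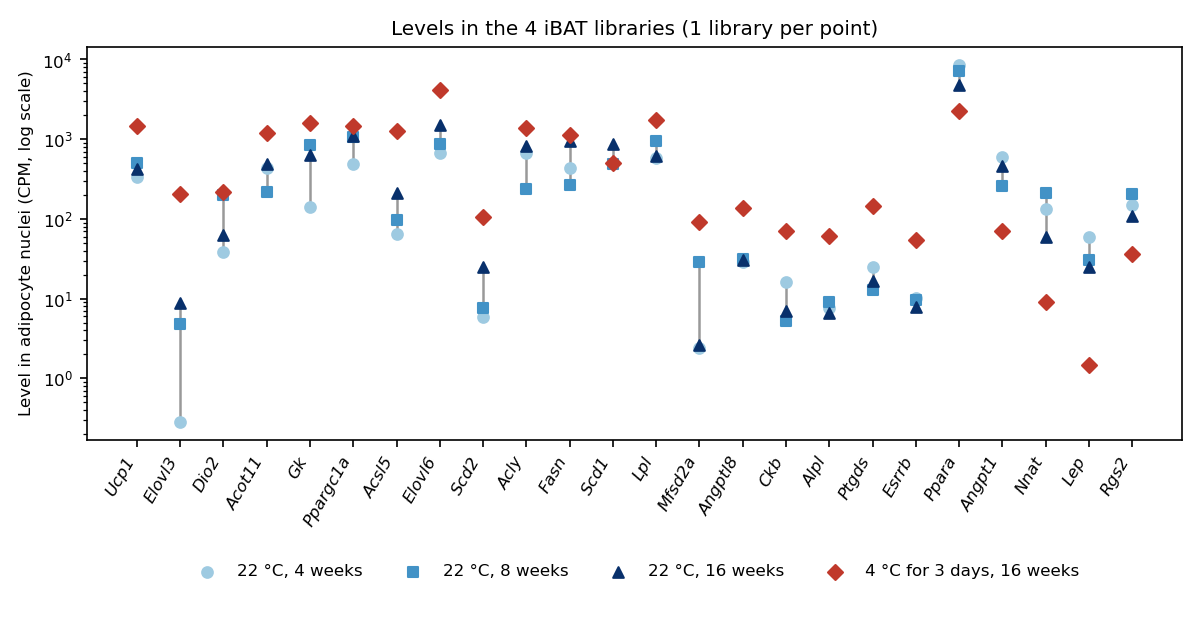
Level in CPM (log scale) of 24 genes in the adipocyte nuclei of the 4 iBAT libraries, 1 point per library; the grey line spans the 3 libraries at 22 °C. The cold library lies above that span for Ucp1, Acsl5 and Esrrb, close to its top for Dio2, and below it for Ppara, Angpt1 and Lep.

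Fatty acid synthesis, with 21 genes listed, had 7 of 17 tested members higher (6.71% of all genes) and none lower (8.37%). Their median log2 ratio was 0.77. All 7 were also at least 2-fold above the highest of the 3 libraries at 22 °C. Those 3 include the same 22 °C library, and 3.99% of all genes were that high. The 7 did not include the first enzymes of the pathway. Acaca, which makes malonyl-CoA, had 5561 CPM after cold and 6417 CPM at 22 °C, Fasn, the fatty acid synthase, 1139.7 against 957 CPM, and Acly, which supplies acetyl-CoA from citrate, 1392 against 814 CPM. Some genes of elongation and activation were past 2-fold. Elovl6, which extends palmitate, had 4084 CPM after cold and 1491 CPM at 22 °C, 2.74-fold (2.72 to 2.76) higher. Acsl5 (chr19:55251938-55297720, + strand) had 1249.8 CPM after cold and 211 CPM at 22 °C, 5.92-fold (5.80 to 6.04) higher, with 63.8 and 98.3 CPM in the younger libraries. Me1, a source of NADPH, had 930.5 against 331 CPM, and Hacd2, a dehydratase of the elongation cycle, 1552 against 706 CPM. Others stayed closer to equal, with Tecr and Hsd17b12 of the elongation cycle at log2 ratios of 0.42 and 0.32, and Acss2, which activates acetate, at 0.39. Of the desaturases, Scd2 had 107 against 24.8 CPM, 4.31-fold (4.06 to 4.57) higher, while Scd1 had 507 against 879 CPM, 1.73-fold (1.71 to 1.76) lower and within 2-fold. Other nuclei held 207 and 574 CPM of Scd1 after cold and at 22 °C, and with these levels subtracted its log2 ratio went from -0.79 to -0.02. The Scd1 level after cold was near the 505 and 495 CPM of the younger libraries, so its 22 °C level at 16 weeks stood above the other 3. Scd1 and Scd2 are close relatives, and how reads shared between them were counted is not given in the sources used here.

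Regulators of lipid and sterol synthesis, with 16 listed, had 4 of 14 tested members higher (6.71% of all genes) and none lower (8.37%). Mlxipl, the carbohydrate-sensing factor ChREBP, had 2342 CPM after cold and 1102 CPM at 22 °C, 2.13-fold (2.11 to 2.15) higher. Srebf1, the insulin-responsive lipogenic factor, had 150.3 against 153 CPM, an interval of the ratio from 0.954 to 1.01. Insig1, which holds back the activation of sterol-sensing factors, had 91.8 against 43.4 CPM, and Sqle, an enzyme of cholesterol synthesis, 15.1 against 5.12 CPM. With 10 CPM added in place of 1, their log2 ratios were 0.93 and 0.73, within 2-fold. Srebf2, which drives cholesterol synthesis, was within 2-fold, at a log2 ratio of 0.73.

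Lipid capture, with 18 genes listed, had 4 of 15 tested members higher (6.71% of all genes) and none lower (8.37%). Their median log2 ratio was 0.02, with 8 members above 0 and 7 below. Lpl, the lipase that frees fatty acids from circulating triglyceride, had 1763 CPM after cold and 609 CPM at 22 °C, 2.90-fold (2.86 to 2.93) higher, with 587 and 945 CPM in the younger libraries. Angptl8, an insulin-regulated partner of the Lpl inhibitors, had 138 CPM after cold and 30.9 CPM at 22 °C, 4.48-fold (4.25 to 4.72) higher, while the inhibitor Angptl4 had 67.5 against 130.1 CPM, lower and within 2-fold. Mfsd2a, a transporter of lysophosphatidylcholine lipids, had 91.7 CPM after cold and 2.63 CPM at 22 °C, 34.9-fold (29.5 to 41.7) higher, and its 8-week library at 22 °C held 28.6 CPM. Lipg, endothelial lipase, had 10.5 against 1.35 CPM, and with 10 CPM added its log2 ratio was 0.85, within 2-fold. The fatty acid transporters were not among the higher genes. Cd36 had 1275 against 1648 CPM and Slc27a1 211 against 383 CPM.
Triglyceride synthesis, with 17 listed, had 0 of 14 tested members higher and 1 lower, Gpat3, with 39.3 against 97.1 CPM. This isoform starts glycerolipid assembly, and the mitochondrial isoform Gpam had 989 against 619 CPM. The 2 enzymes of the last step differed in direction and stayed within 2-fold, Dgat1 at 355 against 272 CPM and Dgat2 at 609 against 989 CPM. Of 12 tested lipolysis and droplet genes, of 15 listed, 1 was higher and none lower, against 6.71% and 8.37% of all genes. The higher one was Plin2, a droplet coat protein, with 1142 CPM after cold and 559 CPM at 22 °C. Pnpla2, the lipase that starts lipolysis, had 175 against 129 CPM, Mgll, which ends it, 1400 against 783 CPM, and G0s2, an inhibitor of Pnpla2, 335 against 221 CPM.

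Glucose uptake and breakdown, with 33 genes listed, had 7 of 30 tested members higher (6.71% of all genes) and none lower (8.37%). Their median log2 ratio was 0.74. Gapdh had 100.2 CPM after cold and 29.1 CPM at 22 °C, 3.44-fold (3.26 to 3.64) higher, Hk1, a hexokinase, 77.9 against 30.9 CPM, and Pfkp, a phosphofructokinase, 334 against 155 CPM. Endothelial nuclei of the cold library held more of Gapdh and Hk1, 137 and 89.5 CPM. Enzymes of glycogen were among the 7. Gys2, a glycogen synthase, had 185 against 82.0 CPM and Gbe1, the branching enzyme, 2486 against 1207 CPM. Slc2a4, the insulin-responsive glucose transporter GLUT4, had 171 against 103 CPM, 1.66-fold (1.61 to 1.71) higher and within 2-fold. Of 26 tested genes of pyruvate entry and the TCA cycle, of 28 listed, 4 were higher and none lower. Cs, citrate synthase, had 594 against 284 CPM, Idh3g, a subunit of isocitrate dehydrogenase, 97.3 against 42.6 CPM, and Mpc2, a subunit of the mitochondrial pyruvate carrier, 397 against 198 CPM. Mpc2 lay at the threshold, and with 10 CPM added its log2 ratio was 0.97. The remaining higher member was Pdk2, a pyruvate dehydrogenase kinase, at a log2 ratio of 1.07. It came within 2-fold with 10 CPM added. Of the 4 higher members of this list, 1 was also at least 2-fold above the highest of the 3 libraries at 22 °C.

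Fatty acid oxidation had 3 of 23 members higher and none lower, against 6.71% and 8.37% of all genes. All 23 were tested. Cpt1a had 21.5 CPM after cold and 5.44 CPM at 22 °C, below the 74.0 and 67.2 CPM of other nuclei, and the part of RNA from other cells was not tested. By comparison, Cpt1b, the muscle-type isoform of the same gate into mitochondria, had 697 against 435 CPM. Ehhadh, a peroxisomal enzyme, had 351 against 116 CPM and Slc25a20, the carnitine carrier, 762 against 367 CPM. Acadm and Hadha, enzymes of the mitochondrial cycle, had log2 ratios of -0.28 and 0.30.

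Subunits of the respiratory chain encoded in the nucleus lay on the higher side, 32 of 32 above a log2 ratio of 0, with a median of 0.49 against -0.06 over all genes. With the level in other nuclei subtracted, Uqcrfs1 was at -0.04 and Cox15 at -2.52, and with the nucleus rule applied at 1000 UMIs Cox15 was at -0.01. Of the 32, 3 were at least 2-fold higher, against 6.71% of all genes. They were Atp5d (82.8 against 28.2 CPM), Cyc1 (110.0 against 43.5 CPM) and Ndufs8 (18.2 against 7.12 CPM). With 10 CPM added the log2 ratio of Ndufs8 was 0.72, within 2-fold. RNA made in mitochondria went the other way. Of 13 protein genes of mitochondrial DNA, 11 were at least 2-fold lower after cold, against 8.37% of all genes, and none higher. Their median log2 ratio was -1.75. Of the 11, 4 were also at least 2-fold below the lowest of the 3 iBAT libraries at 22 °C (4.37% of all genes). None of the 13 had a value once the level in other nuclei was subtracted. mt-Co1 had 272 CPM after cold and 1003 CPM at 22 °C, and 995 and 826 CPM in the younger libraries. Such RNA lies outside the nucleus. It was also lower after cold in nuclei of other cells, with 1627 and 2869 CPM of mt-Co1, and the adipocyte nuclei had a median of 0.165% mitochondrial UMIs after cold and 0.667% at 22 °C. In the mPRAT cold library the same list had a median of 2.28. The part of RNA from outside the nuclei in these values was not tested.

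Calcium and creatine cycling, routes of heat production without Ucp1, had 2 of 10 tested members higher, of 19 listed, against 6.71% of all genes. Ckb, a creatine kinase, had 70.0 CPM after cold and 7.01 CPM at 22 °C, 9.99-fold (8.98 to 11.1) higher. Alpl, a phosphatase that splits phosphocreatine in brown fat mitochondria, had 60.9 CPM after cold and 6.55 CPM at 22 °C, 9.31-fold (8.34 to 10.4) higher. The calcium pump Atp2a2 had 618 against 375 CPM and the channel Ryr2 84.5 against 81.8 CPM.

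**Figure D3:**
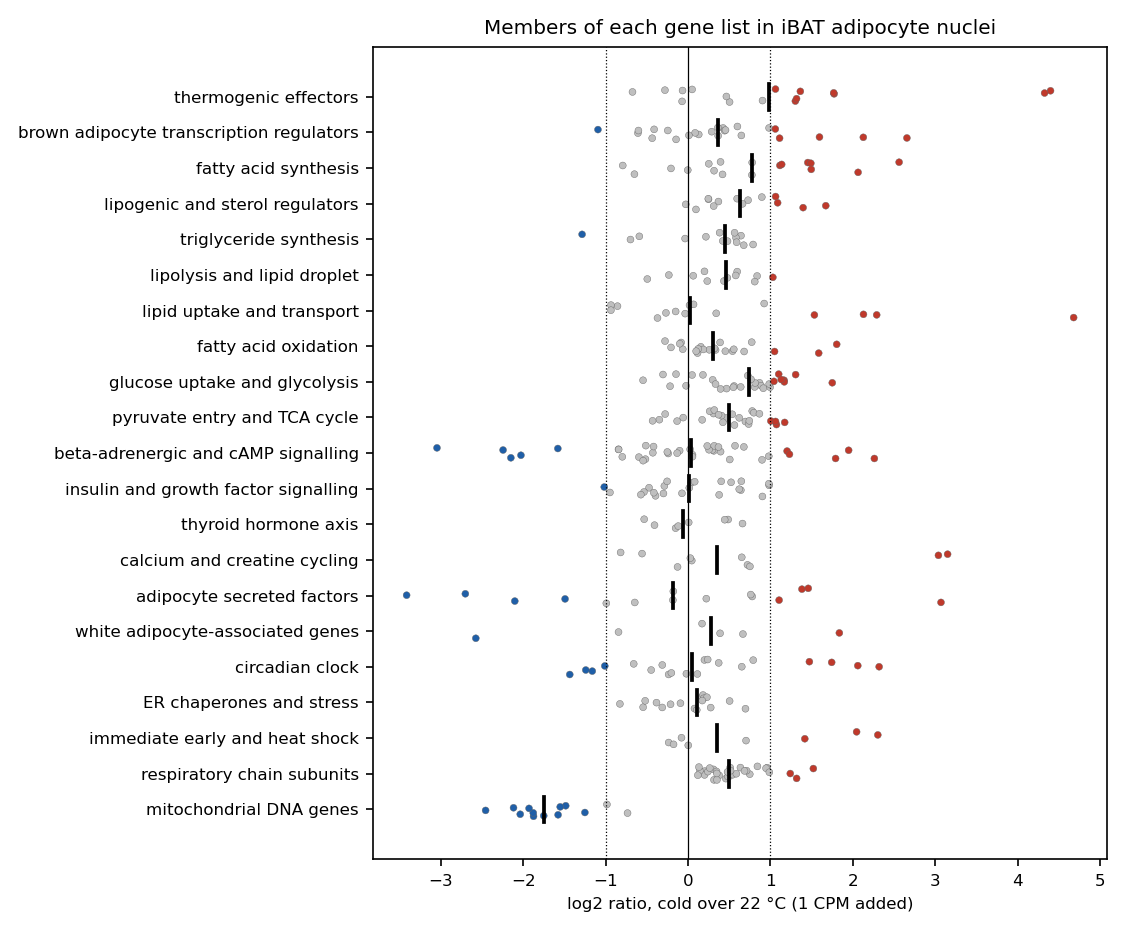
Log2 ratio of cold over 22 °C for the tested members of 21 gene lists in iBAT adipocyte nuclei, 1 point per gene (red, at least 2-fold higher; blue, at least 2-fold lower; grey, within 2-fold), with a black bar at each list's median. Respiratory chain subunits lie entirely to the right of 0 and mitochondrial DNA genes entirely to the left.

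Beta-adrenergic and cyclic AMP signalling, with 46 genes listed, had 5 of 38 tested members higher (6.71% of all genes) and 5 lower (8.37%). Their median log2 ratio was 0.04. The receptor Adrb3, the main beta receptor of brown fat, had 344 CPM after cold and 279.7 CPM at 22 °C, 1.23-fold (1.204 to 1.25) higher, and Adrb1 had 107 against 86.1 CPM. Enzymes that make cyclic AMP were split. Adcy10, the soluble adenylyl cyclase, had 144 CPM after cold and 29.4 CPM at 22 °C, Adcy3 had 813 against 353 CPM, and Adcy5 had 2.60 against 16.0 CPM. Of the enzymes that break it down, Pde7b had 1819 CPM after cold and 525 CPM at 22 °C, 3.46-fold (3.42 to 3.51) higher, while Pde3b, the insulin-activated form, had 1234 against 2144 CPM. The Nr4a genes, nuclear receptors that respond quickly to cyclic AMP, were split too. Nr4a1 had 18.4 CPM after cold and 85.1 CPM at 22 °C, Nr4a3 1.75 against 21.7 CPM and Nr4a2 123 against 65.5 CPM. Nr4a1 was also lower after cold in nuclei of other cells, at 14.9 and 111 CPM, Nr4a3 was at 3.34 and 56.5 CPM there, and the part of RNA from other cells was not tested. The younger libraries held 18.4 and 33.9 CPM of Nr4a1 and 0.717 and 2.57 CPM of Nr4a3, so neither cold level was apart from all libraries at 22 °C. Once the level in other nuclei was subtracted from each library, the log2 ratio of Nr4a1 was 2.19. Rgs2, a brake on G protein signals, had 36.03 against 109.6 CPM, the lowest of the 4 iBAT libraries.

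Secreted factors were split, with 4 of 15 tested members higher (6.71% of all genes) and 4 lower (8.37%), of 30 listed. Lep, the hormone leptin, had 1.46 CPM after cold and 25.2 CPM at 22 °C, 17.2-fold (14.3 to 20.95) lower, with 59.96 and 30.9 CPM in the younger libraries. Angpt1, a growth factor of vessels, had 70.7 CPM after cold and 465 CPM at 22 °C, 6.58-fold (6.39 to 6.77) lower. In nuclei of other cells, Angpt1 had 255 and 198 CPM after cold and at 22 °C. Ptgds, a synthase of prostaglandin D, had 147 CPM after cold and 16.7 CPM at 22 °C, 8.83-fold (8.24 to 9.47) higher, and Fgf9, a fibroblast growth factor, 33.3 against 11.5 CPM. Vegfa, the main growth factor of vessels, had 1509 against 879.7 CPM and stayed within 2-fold, as did the brown fat factor Nrg4 at 2072 against 2353 CPM. Among genes associated with white fat, 12 in the list, 1 of 6 tested was higher and 1 lower. Npr3, the clearance receptor of natriuretic peptides, had 425 CPM after cold and 118 CPM at 22 °C, and Nnat had 9.03 against 58.7 CPM.

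The 15 genes with the highest and the 15 with the lowest ratios, at a level of 20 CPM or more in either library, lay mostly outside these lists. Cpne5, a calcium-dependent membrane protein, had 48.8 CPM after cold and 0.676 CPM at 22 °C, 72.3-fold (51.9 to 104) higher. Dgkg, a diacylglycerol kinase, had 29.8 CPM after cold and 0.405 CPM at 22 °C, 73.4-fold (47.9 to 119) higher. Hcn2, a cation channel, had 33.6 against 0.927 CPM. Sgk2, a kinase related to Akt, had 26.9 against 0.772 CPM, and Grip1, a scaffold protein, 61.9 against 3.22 CPM. The younger libraries at 22 °C held more of both than the one at 16 weeks, 10.6 and 7.26 CPM of Sgk2 and 12.5 and 8.71 CPM of Grip1, and against the highest of the 3 libraries the log2 ratios were 1.26 and 2.22. Cmah, Sult5a1 and Iigp1 were among the 15 in adipocyte nuclei, but their levels were higher in other nuclei of the cold library, at 104, 349 and 568 CPM, than the 58.7, 53.1 and 47.0 CPM of adipocyte nuclei. The part of RNA from other cells in these 3 values was not tested. The others of the 15 were Mfsd2a, Elovl3, Bmp8b, Ankrd33b, Gm49313, Tmem82 and Wipf3, at log2 ratios from 3.51 to 4.87. Ankrd33b had 16.6 and 18.6 CPM in the younger libraries, well above the 1.78 CPM of the 22 °C library at 16 weeks, and endothelial nuclei of the cold library held 112 CPM, above its adipocyte level.
On the log2 scale with 1 CPM added, the lowest ratio was that of Tmem132b, a membrane protein gene at chr5:125531774-125792583, + strand, with 7.16 CPM after cold and 384 CPM at 22 °C, 53.6-fold (49.4 to 58.2) lower, and 83.8 and 262 CPM in the younger libraries. Lctl, a relative of the Klotho proteins, had 5.12 against 226 CPM, and Vat1l 5.12 against 205 CPM. Map2k6, a kinase that activates p38, had 1.72 CPM after cold and 82.9 CPM at 22 °C, 48.3-fold (40.8 to 57.5) lower, with 29.1 and 28.6 CPM in the younger libraries. In other nuclei its levels were 65.5 and 54.0 CPM. Slc16a7, a carrier of lactate and pyruvate, had 7.60 against 159.9 CPM, and its level in other nuclei was 99.2 and 76.6 CPM. Gm49497, a long non-coding RNA, rested on 3 UMIs after cold against 1072 at 22 °C, a ratio of 0.00175 (0.000361 to 0.00514), and its level was 1.15 and 3.00 CPM in the younger libraries. The other lower genes were Gm28905, Mroh7, Cib4, Klkb1, Olfr734, St6galnac5, Abi3bp, Ranbp3l and Gm10649, at log2 ratios from -4.94 to -3.69. For Gm28905, Klkb1, Olfr734 and Ranbp3l, the younger libraries held far less than the 22 °C library at 16 weeks. Against the lowest of the 3 libraries at 22 °C their log2 ratios were -1.10, -1.37, -1.13 and -1.75. Those of the others named here ran from -4.10 to -1.98. Abi3bp and St6galnac5 were higher in other nuclei of the cold library, at 229.5 and 160.4 CPM, than in its adipocyte nuclei.

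Against all 3 iBAT libraries at 22 °C, 350 genes were at least 2-fold higher after cold than the highest of them (3.99% of genes tested), which is 59.5% of the 588. At least 2-fold below the lowest of the 3 were 383 genes (4.37%), 52.2% of the 734. Of higher list members, 5 of 8 in heat production, 3 of 5 brown fat regulators and 3 of 4 lipid regulators passed this check. So did 3 of 4 in lipid capture, 5 of 7 in glucose use, 2 of 3 in fatty acid oxidation and 1 of 4 in pyruvate entry. In cyclic AMP signalling, 2 of 5 higher and 3 of 5 lower members did. The 3 libraries include the one of the main comparison and differ in age, so they bound the level at 22 °C and are not replicates. Gene length moved with the ratios. In the shortest of 4 equal groups of genes by length on the genome, 11.4% were higher after cold and 5.21% lower, with a median log2 ratio of 0.19, and in the longest 5.84% were higher and 14.3% lower, with a median of -0.18. The part of gene length in the results was not tested.

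The share of nuclei with a UMI was compared after each nucleus was thinned to 1000 UMIs, which left out 77 shallower adipocyte nuclei after cold and 1860 at 22 °C. Ucp1 was found in 72.9% (72.1 to 73.7) after cold and 30.5% (29.8 to 31.2) at 22 °C, and in 97.2% and 49.0% without thinning. After thinning, 19.99% of adipocyte nuclei held 3 or more Ucp1 UMIs after cold and 2.63% at 22 °C, and 27.1% and 69.5% held none. Nuclei with most other-cell UMIs from Flt1 and Ptprb, taken as endothelial, should lack Ucp1 and gave 26.8% (22.4 to 31.6) after cold and 6.41% (3.12 to 11.5) at 22 °C, at median depths of 2125 and 1093 UMIs. That share is given as a background, and whether it came from free RNA or from mixed nuclei was not tested. Kept nuclei with at least 3 adipocyte UMIs, matched or outnumbered by other-cell UMIs, were 404 after cold and 134 at 22 °C. The endothelial share was higher in the cold library than at 22 °C, and the adipocyte share lay above it in each library.
Acsl5 was found in 65.6% (64.7 to 66.5) after cold and 16.2% (15.7 to 16.8) at 22 °C, Elovl6 in 94.4% after cold and 61.9% at 22 °C and Elovl3 in 17.8% after cold and 0.775% at 22 °C. Their shares without thinning were 95.7% and 30.2%, 99.3% and 78.2% and 66.2% and 2.20% after cold and at 22 °C. For Ppara the share was 81.7% (81.0 to 82.4) after cold and 94.7% (94.3 to 95.03) at 22 °C, so most adipocyte nuclei of both libraries held it. Tmem132b was found in 0.716% (0.567 to 0.892) after cold and 25.6% (24.9 to 26.2) at 22 °C, and in 3.63% and 41.9% without thinning. In endothelial nuclei, given as the background, Acsl5 was found in 19.1% after cold and 7.69% at 22 °C, Elovl6 in 31.6% after cold and 13.5% at 22 °C and Ppara in 15.4% after cold and 21.8% at 22 °C, each below the adipocyte share of the same library. Elovl3 was found there in 6.37% (4.12 to 9.32) after cold and 0.641% (0.0162 to 3.52) at 22 °C. The 22 °C share rests on 1 of 156 endothelial nuclei, with 116 shallower ones left out, and its interval includes the adipocyte share. By level at 22 °C, Elovl3 had 8.71 CPM in adipocyte nuclei and 1.88 CPM in other nuclei. Tmem132b was found in 0 of 377 endothelial nuclei after cold, with an upper limit of 0.974%, and in 1.92% at 22 °C. Its adipocyte share after cold was within that limit. Within the cold library, adipocyte nuclei with and without a Ucp1 UMI after thinning were set side by side. Acly was found in 64.1% and 64.1% of them, Acsl5 in 66.9% and 62.0% and Elovl3 in 18.5% and 15.9%. At 22 °C Acly was found in 46.2% and 52.6% and Gk in 45.4% and 31.9%. Endothelial nuclei gave 19.1% after cold and 14.1% at 22 °C for Acly and 7.05% at 22 °C for Gk. Cells of 1 library are not replicates, and a nucleus with no Ucp1 UMI at this depth may still express it.

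**Figure D4:**
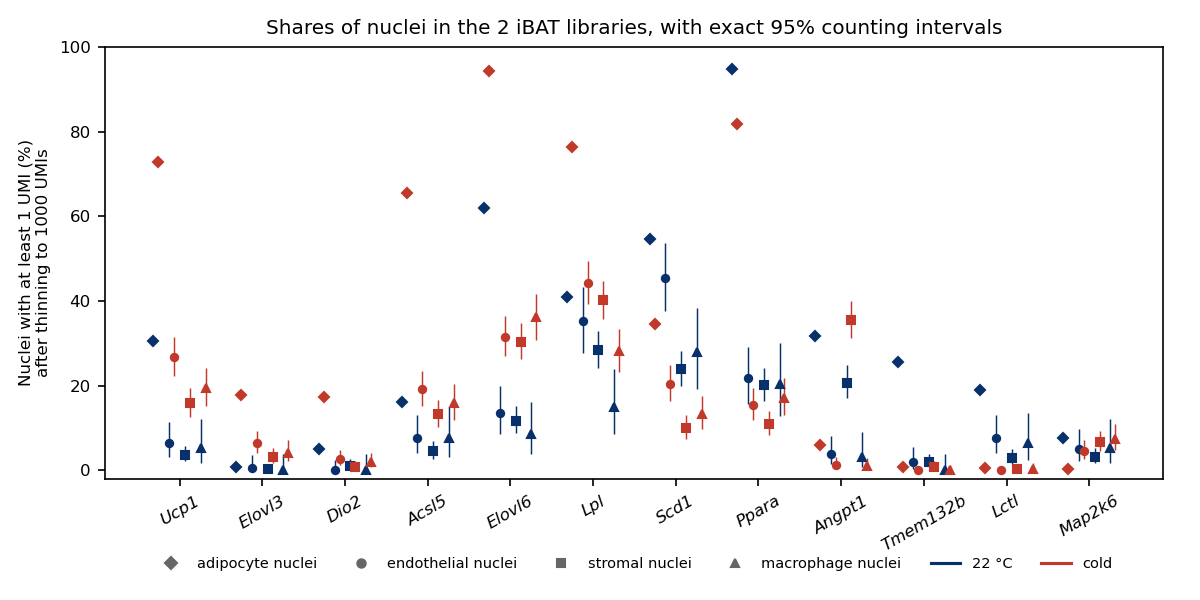
Share of nuclei with at least 1 UMI of 12 genes after thinning to 1000 UMIs, in adipocyte, endothelial, stromal and macrophage nuclei of the 22 °C (blue) and cold (red) iBAT libraries, with exact 95% counting intervals. Ucp1 reaches 72.9% of adipocyte nuclei after cold and 26.8% of endothelial nuclei, and the Angpt1 share is lower after cold in adipocyte nuclei and higher in stromal ones.

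Cold and 22 °C libraries of mPRAT and iWAT adipocytes were compared by the same rules. These depots do not share control libraries with iBAT, and differences between depots were not tested. Of the 588 genes higher in iBAT, 288 were higher in mPRAT (49.0% of the iBAT genes and 39.0% of the 739 of mPRAT), and 44 were higher in iWAT (7.48%, and 17.2% of the 256 of iWAT). Of the 734 lower genes, 261 were lower in mPRAT (35.6% and 41.9% of each list) and 84 in iWAT (11.4% and 15.5%). Higher genes were 7.88% of those tested in mPRAT and 3.06% in iWAT, and lower genes 6.64% and 6.47%. Ucp1 had log2 ratios of 1.77 in iBAT, 1.89 in mPRAT and 4.17 in iWAT. Acsl5 had 2.56, 3.55 and 0.05 in the same order, Ptgds 3.07, 3.89 and 0.04, and Esrrb 2.65, 2.14 and 0.09. Scd1 had -0.79 in iBAT, 0.92 in mPRAT and 2.58 in iWAT. Npr3 had 1.84 in iBAT, -0.78 in mPRAT and -0.98 in iWAT.

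**Figure D5:**
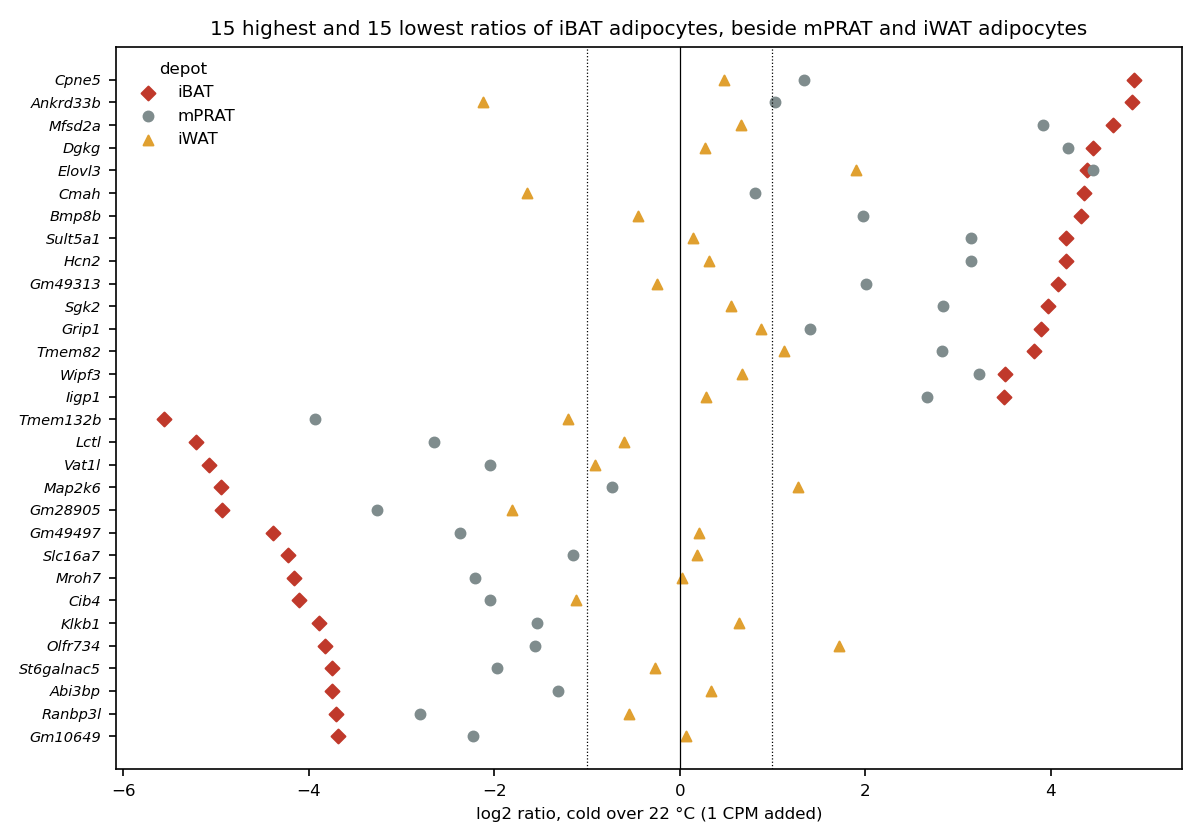
Log2 ratio of cold over 22 °C in adipocyte nuclei of iBAT, mPRAT and iWAT for the 15 genes with the highest and the 15 with the lowest ratios in iBAT. The genes were chosen on iBAT. Several lie on opposite sides of 0 in iBAT and iWAT, among them Map2k6, Olfr734, Cmah and Ankrd33b.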

How the data were processed

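Single-nucleus RNA was measured in 12 libraries, of which 8 were used here. Per the labels, nuclei were sorted after staining with the DNA dye 7-AAD and run on the 10x Single-Cell 3′ v3.1 chemistry. The deposited matrices hold raw UMI counts per gene and barcode, made by the authors with Cell Ranger 7.0.0 on mm10, per the submitters' processing notes. The annotation, the counting of intronic reads, the barcode filter and the treatment of doublets are not given in the sources used here. Every deposited barcode in these libraries held at least 500 UMIs. Gene positions came from GENCODE M21 on GRCm38, matched by identifier (32158 of 32285).

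Nuclei were kept and adipocyte nuclei chosen as described above, and their counts were summed per library and scaled to CPM. No doublet caller was run. Alternatives kept only adipocyte nuclei with 0 UMIs of the other-cell genes or left out the deepest 10% of nuclei. Ratios were taken with 1 CPM added, over genes with at least 10 CPM in either library, and a gene was called at 2-fold. Intervals of levels are exact Poisson intervals, those of ratios exact binomial intervals of the split of a gene's UMIs between 2 sums, and those of shares Clopper-Pearson intervals. The scripts were checked on simulated data. The deposited counts allow no test with 1 library per group, so edgeR 4.0.16 (R 4.3.3) was used only for TMM factors. Other steps used Python 3.11.15, numpy 2.4.6, scipy 1.17.1 and pandas 2.3.3. Other nuclei are those in which the other-cell genes summed to at least 3 UMIs and to more than the adipocyte genes.

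The members and gene lists were chosen with earlier results of these data known. Named genes are the 15 highest and 15 lowest ratios at 20 CPM or more, and in each list up to 8 members with the largest ratios at 10 CPM or more, plus members whose known role calls for a value. Promoter windows were shown for the 4 largest ratios with a RefSeq window. List members whose symbol is shared by more than 1 identifier (38 such symbols) were not tested. Identifiers with shared symbols stayed in the counts over all genes. Some list members counted in the totals are not reported here by name.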

Additional observations from a re-analysis of the deposited data

Results flagged for a closer look

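Of 122 named or listed genes past 2-fold in iBAT adipocytes, 6 were at least 2-fold different in the opposite direction in iWAT adipocytes. All 6 had at least 10 CPM in either iWAT library, and they are listed for that direction. Over all genes, 27 of the 588 higher and 28 of the 734 lower genes of iBAT were at least 2-fold opposite in iWAT. No minimum level in iWAT was set for those counts. Ankrd33b, below 10 CPM in both iWAT libraries, had log2 ratios of -2.12 there and 4.87 in iBAT. None of these differences between depots was tested, since each depot has 1 library per temperature. Ppara had a log2 ratio of 1.27 in iWAT and -1.09 in iBAT. Angpt1 had 1.09 in iWAT and -2.70 in iBAT, and Rgs2 1.67 in iWAT and -1.58 in iBAT. Map2k6 had 1.28 in iWAT and -4.95 in iBAT, and Olfr734, an olfactory receptor gene, 1.72 and -3.83. Cmah, which makes a sialic acid, had -1.64 in iWAT and 4.36 in iBAT. The list of 13 mitochondrial DNA genes had a median log2 ratio of 2.28 in mPRAT and -1.75 in iBAT. The mPRAT cold library is the one in which 66.0% of barcodes were over the mitochondrial limit, and the difference was not tested.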

How the results depend on the processing

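Each result was recomputed under 11 alternatives. The 588 higher and 734 lower genes became 320 and 408 with 10 CPM added before the ratio, and 979 and 1109 once the level in other nuclei was subtracted (3914 genes tested). Lower genes numbered 1366 with a minimum of 20 counts over both libraries in place of 10 CPM, where 17388 genes were tested and 873 were higher. With TMM scaling 841 were higher and 570 lower. Stricter adipocyte or gene minimums, the rule applied at 1000 UMIs per nucleus, no other-cell UMIs, means over nuclei, the deepest nuclei left out and the lower mitochondrial limit gave 590 to 635 higher and 719 to 750 lower genes. Of 122 named or listed genes past 2-fold, 103 stayed past it under every alternative that gave a value, and 23 had no value once the level in other nuclei was subtracted, being at 0 in both. The 122 include Adipoq and Lama2, which were used to choose the nuclei, and some alternatives only change that choice. With no other-cell UMIs allowed, Lama2 had no value by construction. With 10 CPM added, those that came within 2-fold included Bhlhe41, Cebpb, Dbp, Dnajb1, Fabp3, Insig1, Irs1, Lama2, Lipg, Mpc2, Ndufs8, Nr1d1, Pdk2, S100b, Sqle and Tpi1, and with TMM scaling Dbp, Irs1, Nr1d1 and Ppara did. Nr4a1 changed sign under the subtraction of the level in other nuclei, to 2.19, and the cause was not tested. Leaving out a replicate was not possible with 1 library per group. No paired analysis was possible because each group has 1 library. Counting intervals are widest for genes with few UMIs in a library, such as Gm49497 with 3 after cold, and the spread between animals was not measured.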

Other observations

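Genes of the circadian clock were split, with 4 of 20 tested members (21 listed) at least 2-fold higher after cold and 4 lower. Of all genes, 6.71% were higher and 8.37% lower. Arntl, the clock activator BMAL1, had 66.0 CPM after cold and 12.4 CPM at 22 °C, 5.31-fold (4.89 to 5.77) higher, and 7.89 and 15.1 CPM in the 4-week and 8-week libraries. Per2, a repressor of the loop, had 171 CPM after cold and 40.2 CPM at 22 °C, and its younger libraries were at 116 and 86.4 CPM, so the 22 °C library at 16 weeks was the lowest of the 4. Rora, an activator of Arntl, had 916 CPM after cold and 2476 CPM at 22 °C, below the 3433 and 2723 CPM of other nuclei in the same order. Nr1d1, a repressor of Arntl, had 32.8 against 74.6 CPM and Dbp, an output gene, 18.8 against 38.9 CPM. With TMM scaling the log2 ratios of Nr1d1 and Dbp were -0.99 and -0.84, within 2-fold. Arntl had 27.9 and 73.4 CPM in other nuclei after cold and at 22 °C, the opposite order to adipocyte nuclei. Of the 4 higher and 4 lower members, 1 and 0 were also past 2-fold against all 3 libraries at 22 °C. The time of day of collection is not given in the sources used here, and its part in these values was not tested.

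Heat shock genes were among the higher genes. Hsph1, a large heat shock protein, had 159 CPM after cold and 31.5 CPM at 22 °C, 5.06-fold (4.80 to 5.33) higher, with 38.9 and 45.3 CPM in the younger libraries and 55.2 and 49.0 CPM in other nuclei. Hspb1, a small heat shock protein, had 25.9 against 5.52 CPM, and Dnajb1, a co-chaperone, 16.5 against 5.54 CPM, whose log2 ratio was 0.77 with 10 CPM added. These made up all 3 higher members of 8 tested immediate early and heat shock genes, of 17 listed. Over all genes, 6.71% were higher and 8.37% lower. None of 17 tested genes, of 20 listed, of endoplasmic reticulum chaperones and stress was past 2-fold, and Hspa5, the main chaperone there, had 58.6 against 52.1 CPM. Insulin signalling had 0 of 23 tested members (26 listed) higher and 1 lower, Irs1, an adaptor of the insulin receptor, with 228 against 461 CPM. With TMM scaling the log2 ratio of Irs1 was -0.84 and within 2-fold, and the younger libraries held 142 and 217 CPM, below the cold level. By comparison, Insr, the receptor, had 861 against 552 CPM. Of the 8 tested genes of the thyroid hormone axis, of 9 listed, none was past 2-fold, and the receptor Thrb had 1225 against 1218 CPM. Dio2 is not in that list and was counted with heat production.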
